A study of Mus musculus with 9 samples.

Results

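The histone genes of MyC-CaP, an androgen-responsive mouse prostate cancer line, were read from RNA-Seq counts of cells given the secreted stromal proteoglycan asporin (ASPN). They were taken as the rows whose symbol begins with Hist1h to Hist4h, H1f, H2af, H2bf or H3f3, which gave 17 of 15384 genes. Of the 17, 12 belong to the replication-dependent histone clusters (H1f1 to H1f6, Hist1h2an, Hist1h2ao, Hist1h2ap, Hist1h2bp, Hist1h4m and Hist1h4n, all on chromosome 13). The other 5 are replacement variant genes (H1f0, H1f7 and H1f10 of the linker family, and H3f3a and H3f3b). The count table carries 51 further histone genes under renamed symbols such as H2ac8 or H3c6, of which 45 are cluster genes and 6 replacement variants, and these serve here only as the comparison.

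Cells were starved for 6 to 12 hours in medium without serum or calcium and then given 100 ng/mL recombinant mouse ASPN for 0, 12 or 24 hours, with 3 libraries at each time. The labels describe all 9 libraries as ASPN-treated, and no library of cells left for 12 or 24 hours without ASPN was analyzed here, so ASPN and hours in culture cannot be told apart. The line is a single cell line plated in replicate wells, and p-values measure the spread between these samples only. Total counts ran from 41881191 to 52993821 per library, and 3 counts in a library correspond to 0.055 to 0.0735 CPM (counts scaled to library size). Of the luminal epithelial markers reported here, Krt8 (24.8 to 42.3 CPM) and Hoxb13 (67.5 to 104 CPM) were detected, whereas Epcam, Cdh1 and Krt18 stayed below 1 CPM in every library. Of the fibroblast, leukocyte and endothelial markers, only Pdgfra passed 1 CPM (8.58 to 13.8 CPM), and the leukocyte markers Cd68 and Cd3e and the endothelial markers Pecam1 and Cdh5 reached at most 37 counts. The markers Ptprc, Kdr, Col3a1 and Lum were not analyzed here.

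Histones package DNA into nucleosomes, whose cores hold H2A, H2B, H3 and H4, and linker histones of the H1 family bind the DNA where it enters and leaves the core. Replication-dependent histone genes lie in clusters, are transcribed as DNA is copied, and give mRNAs that end in a conserved stem-loop in place of a poly(A) tail. Replacement variants are transcribed throughout the cell cycle from genes outside those clusters, give polyadenylated mRNAs, and include H1f0, a linker histone known to accumulate in cells that leave the cycle, and the H3.3 genes H3f3a and H3f3b. Since these TruSeq mRNA libraries select poly(A) tails, a low count of a cluster gene here does not measure its tailless mRNA.

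The stem-loop is printed for cluster members that differed in count, with its core in capitals and 5 bases before and 3 after it. The sequences are from transcripts of GENCODE release M21 on GRCm38.

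H1f2: caaaaGGCTCTTTTCAGAGCCacc
H1f4: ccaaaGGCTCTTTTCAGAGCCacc
H1f3: caaacGGCTCTTTTCAGAGCCacc
Hist1h2ao: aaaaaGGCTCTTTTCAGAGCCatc
Hist1h2ap: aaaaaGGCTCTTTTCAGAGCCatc
Hist1h4n: ctaaaGGCCCTTTTCAGGGCCatc

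The letters searched were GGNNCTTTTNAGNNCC, on the strand of the transcript, and they occurred in a transcript of 9 of the 12 cluster members and 0 of the 5 replacement members. Across the table, 72 of 15374 genes with a transcript held them (0.468%), of which 42 were histone genes. Hist1h2bp held the letters only in its shorter transcript. The annotated transcripts went on for very different lengths beyond the loop. H1f2 continued for 840 bases and had 206 to 347 counts per library, the most of any cluster member. H1f4 continued for 1153 bases with 10 to 43 counts, and H1f3 for 4884 bases with 1 to 16 counts. Hist1h2ap and Hist1h4m stopped 3 bases after the loop and had 1 to 8 and 0 to 3 counts. Hist1h2ao stopped 31 bases after it and nevertheless had 25 to 75 counts, and H1f6, which continued for 185 bases, had at most 1. Length beyond the loop thus did not order the counts.

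Replacement variants supplied nearly all of the member reads. Their summed level was 1073 ± 16 CPM at time 0, 1013 ± 5.1 at 12 hours and 909 ± 36 at 24 hours (mean ± SD, n = 3), scaled by trimmed mean of M-values (TMM) factors. The 12 cluster members summed to 8.5 ± 0.95, 8.19 ± 0.69 and 7.33 ± 0.62 CPM. The replacement sums of the 3 times did not overlap. The cluster sums of 24 hours lay below those of time 0 but overlapped those of 12 hours, which in turn overlapped time 0. H1f2 made up most of the cluster sum, and without it the other 11 genes summed to 2.1 ± 0.33, 2.19 ± 0.41 and 2.47 ± 0.14 CPM, so the direction at 24 hours turned. The 45 cluster genes under other symbols summed to 12.1 ± 0.74, 10.2 ± 0.67 and 9.5 ± 1.3 CPM.

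At 12 hours with ASPN, none of the 7 histone members that passed the count filter was called, and at 24 hours 3 of 8 were. A call required an adjusted p of 0.05 or less in edgeR's quasi-likelihood test and at least a 1.5-fold change. H1f4, a cluster linker histone, rose at 24 hours, and H1f0 and the H2A gene Hist1h2ao fell. Over all genes, 1.60% of 11410 were called at 12 hours and 28.8% of 11444 at 24 hours (12.0% higher and 16.8% lower), so the 3 of 8 members lie near the background. At 12 hours, DESeq2 and limma-voom also called 0 members, and 2 members had an unadjusted p under 0.05. By adjusted p alone, 0 of 7 members were called at 12 hours, 5 of 8 at 24 hours and 5 of 8 between 12 and 24 hours, beside 10.3%, 70.9% and 71.3% of all genes. The median log2 fold change of the tested members was -0.07 at 12 hours and -0.20 at 24 hours, against -0.00 and -0.02 over all genes.

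**Figure D1:**
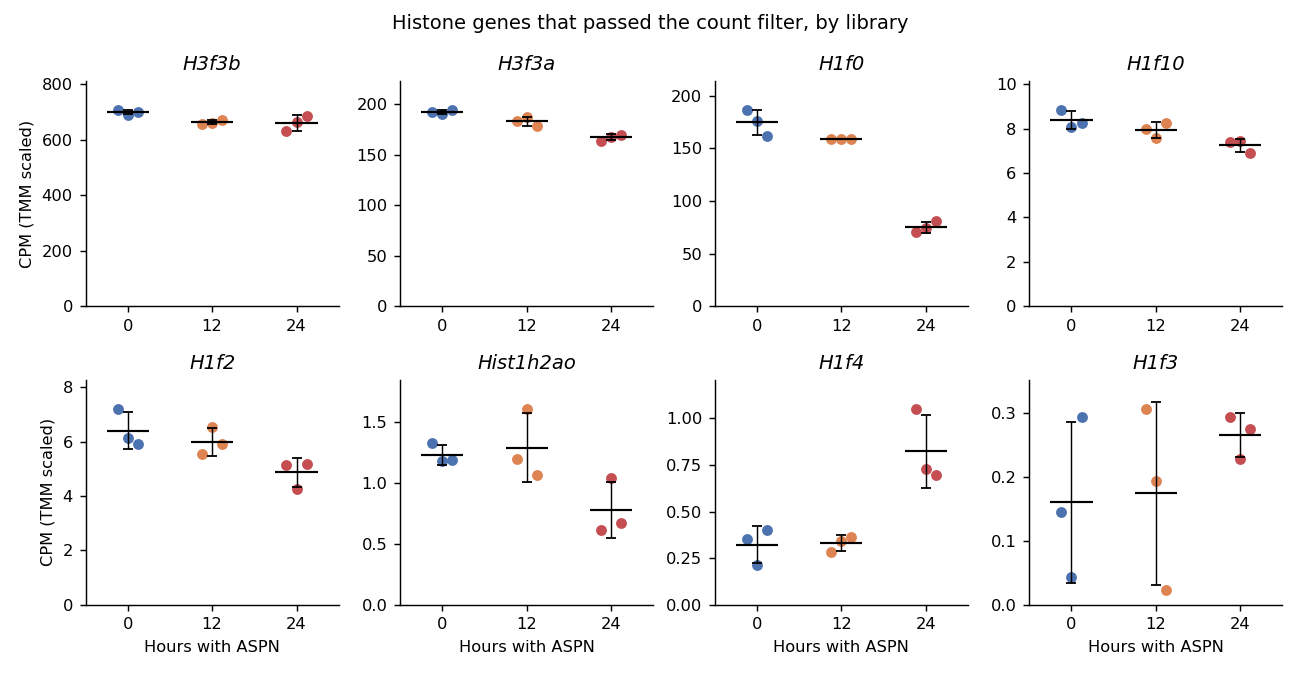
TMM-scaled CPM (y axis, from 0) of the 8 histone genes that passed the count filter at 24 hours, by hours with ASPN (x axis). Points are libraries, horizontal lines the mean of 3 and bars the SD; H1f0 fell from 162 to 186 CPM at time 0 to 70.7 to 80.6 at 24 hours, and H1f4 rose from at most 0.403 to at least 0.697.

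Among linker histones, H1f0 carried the clearest change. H1f0 (ENSMUSG00000096210.2) is a single-exon gene at chr15:79028450-79030504 on the plus strand of GRCm38. Its level was 186, 176 and 162 CPM in the 3 libraries of time 0, 159 in each library of 12 hours, and 70.7, 73.8 and 80.6 at 24 hours. All 24-hour libraries lay below every library of the earlier times, and the 12-hour libraries lay below those of time 0. Relative to time 0, H1f0 differed by -0.13 on the log2 scale (SE 0.04) at 12 hours, with an edgeR adjusted p of 0.064, and by -1.22 (SE 0.06) at 24 hours, with 1.2e-09. This 2.32-fold fall was called under each of the 12 alternatives and with each library left out in turn, where the log2 values ran from -1.44 to -1.15. An antisense gene, Gm49544, covers 163 bases of H1f0 (7.93%), and whether the counting used strand is not stated.

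H1f10, the other somatic replacement linker histone, lies at chr6:87980421-87981637. It had 8.82, 8.06 and 8.24 CPM at time 0, 7.98, 7.57 and 8.25 at 12 hours, and 7.4, 7.43 and 6.89 at 24 hours. The 24-hour libraries lay below both earlier times, but the difference from time 0 was -0.21 on the log2 scale (SE 0.09, edgeR adjusted p 0.059) and was not called. H1f7, a linker histone of spermatids, had 0 to 4 counts per library and was not tested.

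H1f4 (ENSMUSG00000051627.3) lies at chr13:23620629-23622558 on the minus strand as a single exon. It had 17, 10 and 22 counts at time 0, 13, 16 and 16 at 12 hours, and 43, 35 and 33 at 24 hours, which scaled to 1.05, 0.726 and 0.697 CPM at the last time. Every 24-hour library exceeded every earlier library, and the 2 earlier times overlapped. Relative to time 0 the log2 value was 0.02 (SE 0.38) after 12 hours and 1.32 (SE 0.35, edgeR adjusted p 0.0038) after 24 hours. The 24-hour call held under each of the 12 alternatives (1.10 to 1.36) and with each library left out in turn (1.12 to 1.53). Of the H1f4 exon, 496 bases (25.7%) overlap other genes on the same strand, Hist1h2be, listed in the count table as H2bc6, and Gm11398. H2bc6 itself differed by 0.10 on the log2 scale (SE 0.45, adjusted p 0.85).

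H1f2 (ENSMUSG00000036181.2, chr13:23738808-23740367) was the most abundant cluster member. It had 7.2, 6.13 and 5.9 CPM at time 0, 5.53, 6.53 and 5.92 at 12 hours, and 5.15, 4.27 and 5.18 at 24 hours. All 24-hour libraries were below all others, and the fitted log2 difference of -0.40 (SE 0.12, edgeR adjusted p 0.011) fell short of 1.5-fold. With total counts in place of TMM factors it was -0.62 and was called. H1f2 and H1f4, which share the same stem-loop core, therefore had fitted changes of opposite sign.

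The other cluster linker histones had few counts. H1f3 had 7, 2 and 16 counts at time 0 and 12, 11 and 13 at 24 hours, and its log2 fold change of 0.67 (SE 0.57, edgeR adjusted p 0.31) was not called. It passed the filter with 3 libraries of 24 hours and 1 of time 0. H1f5 had 2, 7 and 5 counts at time 0, 9, 2 and 1 at 12 hours and 15, 3 and 16 at 24 hours. It passed the filter only in some fits without a library, and then only through the 2 libraries of 24 hours where it was high, so nothing is read from its calls there. H1f1 had 3, 0 and 2 counts at time 0, 2, 0 and 0 at 12 hours and 6, 2 and 10 at 24 hours, with overlap between time 0 and 24 hours. H1f6, the testis-specific member, had 1 count in all. Together, H1f1, H1f3, H1f4 and H1f5 had 29, 19 and 45 counts at time 0, 38, 27 and 18 at 12 hours and 76, 51 and 72 at 24 hours, a sum chosen after the values were seen and given as a description.

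**Figure D2:**
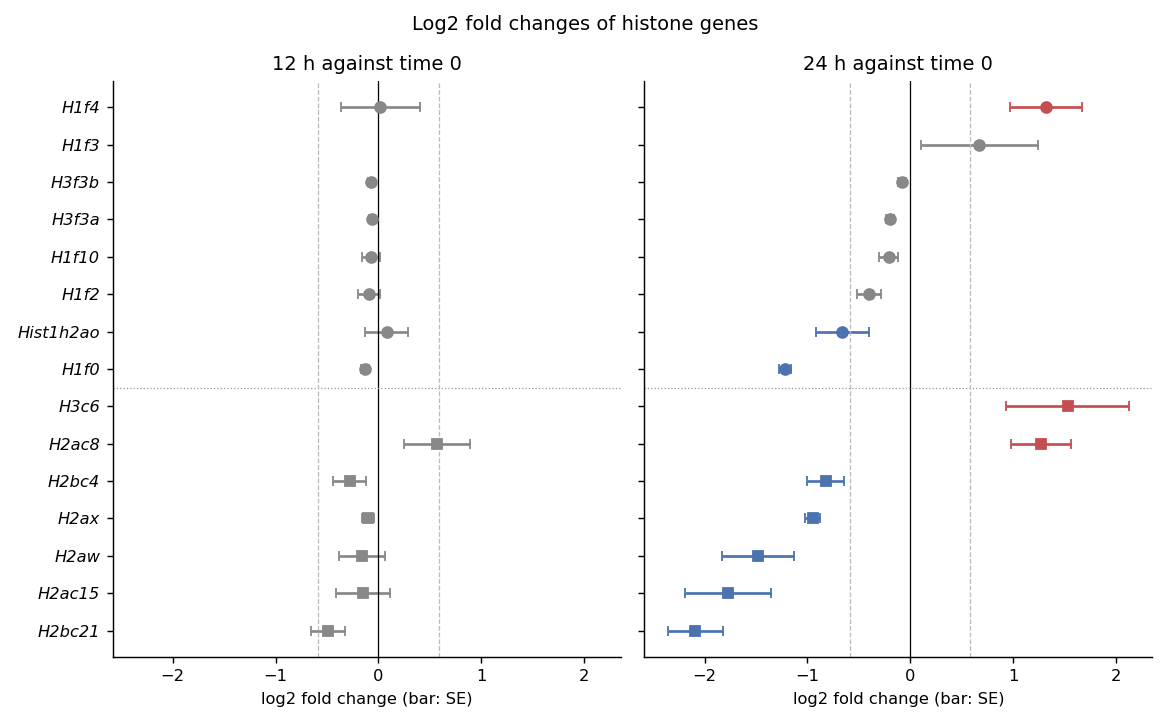
Log2 fold changes (x axis) with SE bars of histone genes at 12 hours (left) and 24 hours (right) against time 0. Circles above the dotted line are the 8 members tested at 24 hours and squares below it the 7 other histone genes called at 24 hours, of which H1f3 and H3c6 were not tested at 12 hours and have no point there; red is called higher, blue called lower, gray not called, and dashed lines mark 1.5-fold. No point is called at 12 hours.

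Per length, H1f0 gave most of the linker histone signal in these poly(A)-selected libraries at every time, which does not rank it against the tailless mRNA of the 6 cluster genes among the 9. On a scale of CPM per kilobase of exon, H1f0 made up 88.2 ± 0.48% of the 9 linker genes at time 0, 87.8 ± 0.098% at 12 hours and 78.3 ± 1.8% at 24 hours. Its share per library was 88.1, 88.7 and 87.8% at time 0 and 76.2, 79.3 and 79.4% at 24 hours, without overlap. The share of H1f10 was 7.16 ± 0.35%, 7.4 ± 0.32% and 12.8 ± 1.2%, that of H1f2 4.26 ± 0.21%, 4.36 ± 0.37% and 6.69 ± 0.63%, and that of H1f4 0.175 ± 0.059%, 0.195 ± 0.025% and 0.924 ± 0.25%. The summed level of the 9 genes was 96.2 ± 6.5 CPM per kilobase at time 0, 88.1 ± 0.028 at 12 hours and 46.6 ± 2.4 at 24 hours. Shares of H1f10 and H1f2 were thus higher at 24 hours although their own levels were not. These are shares of the polyadenylated signal in bulk libraries, in which fewer cells of a kind and less RNA per cell cannot be told apart.

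**Figure D3:**
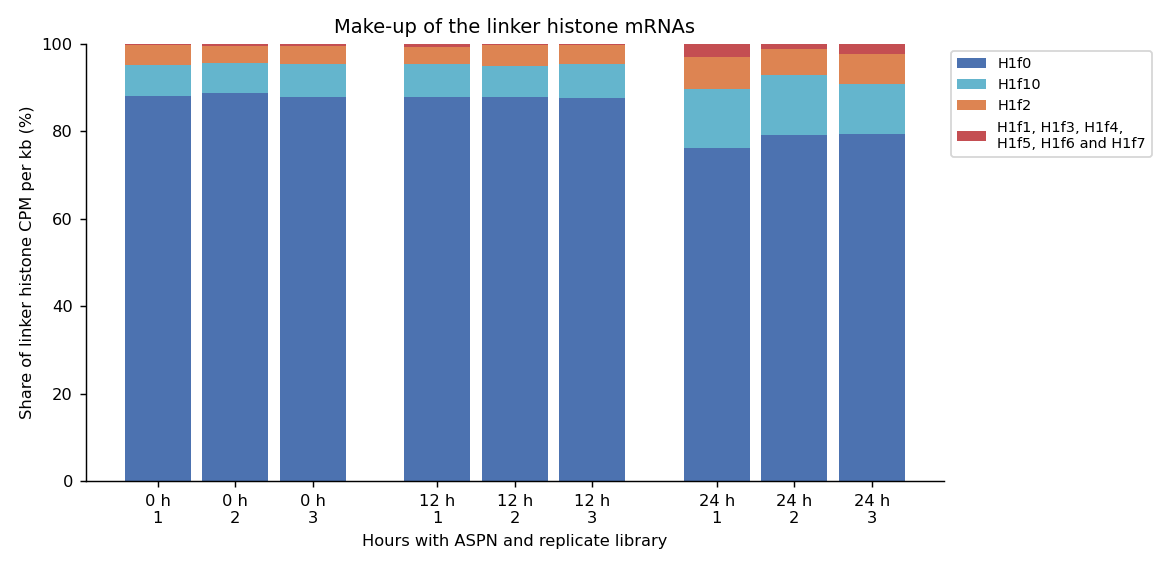
Share of linker histone CPM per kilobase of exon in poly(A)-selected libraries (y axis, percent) taken by each gene in each of the 9 libraries (x axis, hours with ASPN and replicate). H1f0 takes 87.7 to 88.7% in the 6 libraries of time 0 and 12 hours and 76.2 to 79.4% in those of 24 hours.

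Promoters of the linker genes were read from RefSeq on GRCm38.p6, where all 17 members were found. They are shown to set the promoter elements of each gene beside its fitted change, and a link between them was not tested. Cluster H1 promoters are known for an H1 box and a CCAAT box upstream of the TATA box. The letters AAACACA (H1 box), CCAAT and TATAA were searched on both strands, and the only overlap in these 9 genes was of TATAA on opposite strands in H1f5. Of 32851 promoters, each from 250 bases before to 50 after the start, 7.18% held AAACACA, 37.4% CCAAT and 24.9% TATAA. The stretch from 130 to 21 bases upstream of the start is printed on the gene's strand, with these letters in capitals.

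H1f2: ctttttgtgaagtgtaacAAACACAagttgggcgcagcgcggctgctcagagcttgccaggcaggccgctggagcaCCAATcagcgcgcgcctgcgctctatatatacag
H1f3: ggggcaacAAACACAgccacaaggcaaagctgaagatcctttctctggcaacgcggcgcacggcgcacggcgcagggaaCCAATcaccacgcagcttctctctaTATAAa
H1f4: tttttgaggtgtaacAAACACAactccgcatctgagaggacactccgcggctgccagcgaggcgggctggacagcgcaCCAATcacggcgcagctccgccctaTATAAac
H1f5: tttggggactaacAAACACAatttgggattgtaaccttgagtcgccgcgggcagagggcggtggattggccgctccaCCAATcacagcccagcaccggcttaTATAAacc
H1f6: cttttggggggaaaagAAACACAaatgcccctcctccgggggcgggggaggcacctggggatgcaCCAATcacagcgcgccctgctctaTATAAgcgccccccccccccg

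These stretches lie at chr13:23738677-23738786 (H1f2, plus strand), chr13:23554902-23555011 (H1f3, plus), chr13:23622579-23622688 (H1f4, minus), chr13:21780646-21780755 (H1f5, minus) and chr13:23695681-23695790 (H1f6, plus). In all 5, the H1 box began 112 to 122 bases and the CCAAT box 51 to 65 bases upstream. An H1 box 100 to 130 and a CCAAT box 50 to 70 bases upstream on the gene's strand occurred together in 10 of the 32851 promoters (0.0304%), 5 of them these members. H1f1 held CCAAT and TATAA but not AAACACA in its window, and the windows of H1f0, H1f10 and H1f7 held none of the 3. The H1f0 window, at chr15:79027962-79028261, ended before the GENCODE start of the gene at 79028450. The bases between them were not searched, so an element of H1f0 there would be missed. The arrangement of H1 box and CCAAT box was thus present in H1f2, with a fitted fall at 24 hours short of 1.5-fold. It was also present in H1f4, which rose, and in H1f6, with 1 count in all.

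**Figure D4:**
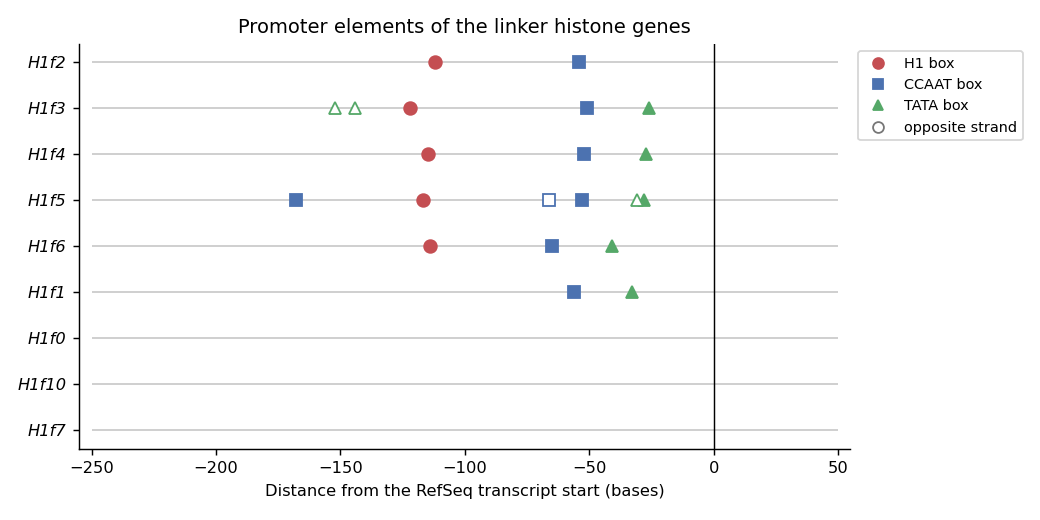
Positions of the 3 promoter elements (x axis, bases from the RefSeq transcript start) in the 9 linker histone genes (rows). Filled symbols lie on the gene's strand and open ones on the opposite strand; the 5 upper rows share an H1 box 112 to 122 bases and a CCAAT box 51 to 65 bases upstream, and the 3 lowest rows are empty. The H1f0 window ends before the GENCODE start of that gene.

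The core histone members of the clusters were hardly counted, except Hist1h2ao (ENSMUSG00000094248.1, chr13:21810465-21810944, plus strand, single exon), which encodes H2A. Hist1h2ao had 64, 55 and 65 counts at time 0, 55, 75 and 47 at 12 hours and 25, 50 and 32 at 24 hours. Its 24-hour libraries lay below those of time 0, with a smallest gap of 1.18 against 1.04 CPM. The log2 fold change was -0.66 (SE 0.26, edgeR adjusted p 0.037), but the call was lost with DESeq2 (adjusted p 0.058) and with the replicate number as a block in edgeR (adjusted p 0.06). It was also lost in 5 of the 6 edgeR fits without a library (log2 values -0.68 to -0.52, adjusted p up to 0.11). The call remained without 24-hour replicate 2 (-0.93). Of its 100-base windows, 92.7% occur identically in other genes, 32 in number, and Gm19658 covers 28.8% of it on the opposite strand, so its counts are uncertain. Hist1h2ap, of which 92.2% of windows are shared, had 8, 4 and 4 counts at time 0, 6, 4 and 5 at 12 hours and 1, 2 and 4 at 24 hours, and Hist1h4n had 0 to 10 counts over the 9 libraries. Hist1h2an, Hist1h2bp and Hist1h4m had at most 6, 3 and 3 counts. In all, 13 of the 17 members share at least 1 such window with another gene.

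The 2 genes of the H3.3 protein, which replaces H3 outside replication, held their levels within 1.5-fold. H3f3b (ENSMUSG00000016559.14, chr11:116021912-116027962, minus strand) had 705, 690 and 700 CPM at time 0, 657, 661 and 671 at 12 hours and 629, 663 and 686 at 24 hours. All later libraries lay below those of time 0, and its log2 fold change at 24 hours was -0.08 (SE 0.04, edgeR adjusted p 0.099). It was -0.23 with transcript length and GC content corrected and -0.30 with total counts (adjusted p 9.7e-06), both past the p threshold but short of 1.5-fold. H3f3a (ENSMUSG00000060743.12, chr1:180800832-180813943, minus strand) had 192, 190 and 194 CPM at time 0, 183, 187 and 179 at 12 hours and 164, 168 and 170 at 24 hours. The 3 times did not overlap, and the log2 fold change at 24 hours was -0.20 (SE 0.04, adjusted p 0.00045), past the p threshold but short of 1.5-fold. Per kilobase of exon, the level of H3f3b was 4.25 to 4.33 times that of H3f3a at time 0, 4.16 to 4.4 times at 12 hours and 4.52 to 4.74 times at 24 hours. H3f3a shares 26.3% of its windows with other genes, and antisense genes cover 22.8% of it. Among the 8 tested members, 7 did not overlap between time 0 and 24 hours (1 higher and 6 lower), against 74.0% of all genes (35.9% higher and 38.0% lower).

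Between 12 and 24 hours the same 3 members were called, against 25.7% of 11394 genes (10.4% higher and 15.3% lower). The log2 fold changes were -1.06 (SE 0.05) for H1f0, 1.32 (SE 0.33) for H1f4 and -0.71 (SE 0.27) for Hist1h2ao, with edgeR adjusted p of 3.4e-10, 0.0027 and 0.032. The Hist1h2ao call was lost in 4 of the 6 fits without a library, namely 12-hour replicates 1 and 2 and 24-hour replicates 1 and 3. Without a count filter H1f1 was also called, at 2.97 (SE 1.22, adjusted p 0.037), on the 2 counts of 12 hours against 18 of 24 hours.

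Of the 51 histone genes under other symbols, 17 were tested at 24 hours and 7 were called, 2 higher and 5 lower, beside 28.8% of all genes (12.0% higher and 16.8% lower). Of the 2 called higher, the H3 gene H3c6 (log2 value 1.53, SE 0.60, edgeR adjusted p 0.034) had overlapping groups, with 2, 19 and 6 counts at time 0 and 28, 14 and 30 at 24 hours, and kept its call in 7 of 11 alternatives and 2 of the 6 fits without a library. It passed the count filter with 3 libraries of 24 hours and 1 of time 0, which favors a higher call. In the same way H2ac15 and H2aw, among the 5 called lower, passed with 3 libraries of time 0 and 1 and 2 of 24 hours, so the count of 7 is a description only. The replacement variant H2ax, whose H2A.X protein is phosphorylated at DNA breaks, fell from 43.2, 43.8 and 48.9 CPM at time 0 to 21.4, 23.9 and 25 at 24 hours (log2 fold change -0.95, SE 0.07, edgeR adjusted p 4.7e-08). H2bc21, an H2B gene, had 124, 143 and 110 counts at time 0 and 26, 18 and 37 at 24 hours, which is -2.09 on the log2 scale (SE 0.27, adjusted p 1.3e-05). H2ac8, an H2A gene, rose from 16, 17 and 21 to 34, 41 and 44 counts (log2 fold change 1.27, SE 0.29, adjusted p 0.0015). H2az1, the main gene of the variant H2A.Z, was 191 to 212 CPM at time 0 and 231 to 242 at 24 hours (log2 fold change 0.22, SE 0.05, adjusted p 0.0007), short of a call, and with total counts the difference was -0.00. Both called directions thus occurred among members and among the other histone genes. The genes named in this paragraph were chosen after their values were seen.

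Genes that make, process and deposit histones were read from a list of 62 names, of which 60 were in the count table and all were tested. At 12 hours 0 of 60 were called by edgeR, DESeq2 or limma-voom, with 12 at an unadjusted p under 0.05. At 24 hours 20 were called, 14 higher and 6 lower, beside 28.8% of all genes called in that comparison.

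In the S phase entry sublist, 8 of 14 genes were called higher and 0 lower, with a median log2 fold change of 0.63, against 12.0% of all genes called higher and 16.8% called lower. Tyms, which makes thymidylate for DNA synthesis, rose from 15.7 to 16.9 CPM at time 0 to 33.4 to 35.5 at 24 hours, or by 1.07 on the log2 scale (SE 0.06, edgeR adjusted p 3.6e-09). Mcm5, a subunit of the replicative helicase, rose by 1.04 on that scale (SE 0.07). The other 6 were Ccna2, Cdt1, Mcm4, Mcm6, Mcm7 and Pcna. With transcript length and GC content corrected, 7 of 14 were called higher, since Ccna2 (0.58) and Pcna (0.57) lost the call and Cdc6 (0.65) gained it. In the same comparison 1 histone member was called higher and 2 lower.

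Of 13 genes for replication-coupled deposition, 4 were called higher and 0 lower, beside 12.0% and 16.8% of all genes. Of these 13, 5 had log2 values below 0, the lowest those of Ipo4 (-0.56, SE 0.07) and Rbbp7 (-0.37, SE 0.04), both short of 1.5-fold. Nap1l1, a chaperone of H2A and H2B, rose from 469 to 478 CPM at time 0 to 876 to 936 at 24 hours (log2 fold change 0.93, SE 0.04). Hat1, which acetylates new H4, rose by 0.91 (SE 0.06), and Chaf1b and Mcm2 also rose. With transcript length and GC content corrected, Chaf1b (0.58) lost the call and Ssrp1 (0.59) gained it, and with total counts Hat1 and Nap1l1 were called higher and Ipo4 and Rbbp7 lower. Of 14 genes for deposition and exchange of replacement variants, 5 were called lower and 0 higher, beside the same shares of all genes. Of these 14, 6 had log2 values above 0, the largest that of Vps72 (0.52, SE 0.05), which fell short of 1.5-fold. Hira, which deposits H3.3, fell from 21.2 to 25.6 CPM at time 0 to 11.4 to 12.6 at 24 hours, which is -0.92 in log2 terms (SE 0.08, edgeR adjusted p 3.8e-07). Srcap, the ATPase that exchanges H2A.Z, had -1.30 (SE 0.14), and Cabin1, Ep400 and Ino80 also fell. With transcript length and GC content corrected, only Hira (-0.63) and Srcap (-0.79) of this sublist were called.

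Of 14 genes for histone transcription and 3′ end processing, only Lsm11 was called, beside 28.8% of all genes (12.0% higher and 16.8% lower). Lsm11 belongs to the U7 particle that cuts histone pre-mRNA (16.2 to 17.2 CPM at time 0 and 27 to 29.9 at 24 hours, log2 fold change 0.77, SE 0.06). Slbp, whose protein binds the stem-loop, had 34.8 to 39.3 CPM at time 0 and 37.3 to 38.5 at 24 hours, and differed by 0.02 on the log2 scale (SE 0.06, edgeR adjusted p 0.81), or by -0.12 with transcript length and GC content corrected (adjusted p 0.047) and -0.21 with total counts. Npat, the coactivator of the clusters, had 37.8 to 38.6 and 27.4 to 28.7 CPM, a difference of -0.45 (SE 0.05, adjusted p 3.3e-06) that fell short of 1.5-fold. With total counts Lsm11 was no longer called (0.54) and Npat was called lower (-0.67). Of 5 genes for histone mRNA decay 2 were called, beside the same shares. The helicase Upf1 fell (-1.03, SE 0.06, and -0.61 with length and GC content corrected) and the nuclease Eri1 rose (0.60, SE 0.04), a call lost with length and GC content corrected (0.55) and with total counts (0.38).

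**Figure D5:**
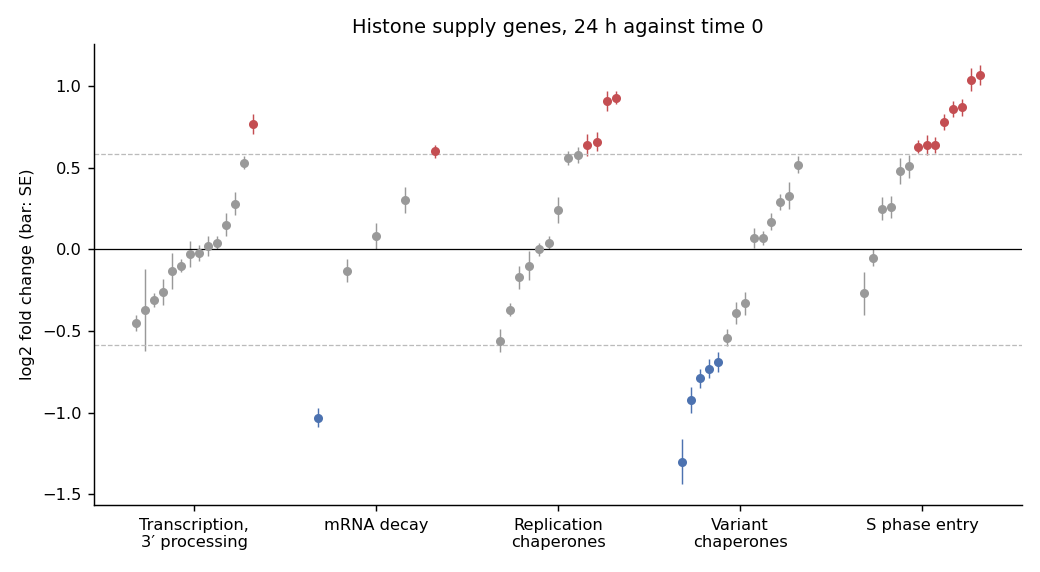
Log2 fold changes (y axis) with SE bars of the 60 histone supply genes at 24 hours against time 0, by sublist (x axis), ordered within each by value. Red is called higher, blue called lower, gray not called, and dashed lines mark 1.5-fold; S phase entry has 8 red and 0 blue points, and the variant chaperones 5 blue and 0 red.

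Scaling sets part of these counts. TMM factors were 1.04 to 1.07 at time 0 and 12 hours and 0.898 to 0.911 at 24 hours, and total-count scaling moved the median log2 fold change of all genes at 24 hours to -0.24. With it, 698 genes were called higher and 3008 lower, in place of 1374 and 1924, and the supply list had 6 higher and 11 lower, in place of 14 and 6. S phase entry then had 4 of 14 called higher and 0 lower, and the variant chaperones 7 called lower. H1f0, H1f4 and Hist1h2ao kept their direction and their call.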

How the data were processed

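RNA-Seq of MyC-CaP cells with ASPN for 0, 12 and 24 hours (3 libraries each) was used. The authors made TruSeq mRNA libraries, sequenced them as read pairs, aligned the reads with STAR to GRCm38.p6 and counted GENCODE M24 genes with featureCounts. The deposited values are raw counts of protein-coding genes. Strand and multi-mapping settings are not given in the sources used here. Members were matched by symbol, and H1f1 to H1f6 were classed as cluster genes by their names and positions in GENCODE M21, where all 17 members had the same start and end. Members, lists and tests were chosen with earlier results of these data known. Each comparison was fitted on its 6 libraries in R 4.3.3 with edgeR 4.0.16 (filterByExpr, TMM factors, quasi-likelihood test, Benjamini-Hochberg adjustment over all tested genes). DESeq2 1.42.0 and limma 3.58.1 served as alternatives. The test was tried on simulated counts, in which 95.5% of 200 genes changed 2-fold among 11444 were recovered for 24 hours against time 0. Genes were named by rule: replacement variants of at least 10 CPM, the 8 most abundant cluster members, called supply genes with the largest changes, Slbp and Npat. Levels per length used the union of exons. Replicate libraries differed by more than counting error (chi-square per degree of freedom 3.41 to 17.5). No other columns of values were used. Part of the luminal marker list is not reported here.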

Additional observations from a re-analysis of the deposited data

Results flagged for a closer look

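In 3 histone genes the change from time 0 differed between 12 and 24 hours, by the edgeR test of 24 hours against 12 hours, which is the difference between these changes. The log2 fold change between 12 and 24 hours was -1.06 for H1f0 (adjusted p 3.4e-10, lower in 3 of 3 libraries), 1.32 for H1f4 (adjusted p 0.0027, higher in 3 of 3) and -0.71 for Hist1h2ao (adjusted p 0.032, lower than the lowest 12-hour library in 3 of 3). None of the 3 was called at 12 hours against time 0, where their log2 fold changes were -0.13, 0.02 and 0.08. The 24-hour libraries also had the lowest TMM factors, and all 3 genes were called between 12 and 24 hours under each of 12 alternatives, scaling included. Without a library, H1f0 and H1f4 were called in 6 of 6 fits, and Hist1h2ao lost its call in 4 of 6.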

How the results depend on the processing

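The counts of called members stayed within 1.5 times of the values given for 12 alternatives and for fits without a library, except with adjusted p alone, where 5 members were called at 24 hours and 5 between 12 and 24 hours, and the supply list had 3 called at 12 hours, 43 at 24 hours and 45 between 12 and 24 hours. By adjusted p alone, 10.3%, 70.9% and 71.3% of all genes were called in these 3 comparisons. Of 1006 pairs of a named gene and an alternative, 954 kept their direction and their side of the call, 17 lost the call, 11 gained it and 24 turned direction, each in a gene called in neither fit. With total counts Slbp had -0.00 at 12 hours, -0.21 at 24 hours and -0.21 between 12 and 24 hours, and H3f3b had -0.21 between 12 and 24 hours. With length and GC correction, with or without the replicate block, Slbp turned to -0.12 at 24 hours and -0.14 between 12 and 24 hours, where H3f3b turned to -0.15. With all 9 libraries, Slbp had -0.00 and H3f3b -0.01 between 12 and 24 hours. Without a library, values at 12 hours that turned in some fits ran from -0.16 to 0.00 for H1f2, -0.11 to 0.20 for Hist1h2ao, -0.19 to 0.22 for H1f4, -0.08 to 0.06 for Hira and -0.03 to 0.05 for Slbp. Those for Slbp at 24 hours ran from -0.02 to 0.06, and between 12 and 24 hours those for Slbp from -0.01 to 0.05 and for H3f3b from -0.02 to 0.04. With total counts, the log2 ratio of the summed levels to time 0 was -0.43 for the cluster members at 24 hours, and -0.10 and -0.46 for the replacement members at 12 and 24 hours, in place of -0.21, -0.08 and -0.24. Without H1f2, an alternative added after the values were seen, the cluster sum at 24 hours turned to 0.24. Deviations of same-numbered libraries had correlations of -0.17 to 0.103 over genes, which showed no strong pairing and cannot settle whether a weak one exists. With a replicate block, 0, 2 and 3 members and 0, 21 and 19 supply genes were called in the 3 comparisons, and Hist1h2ao at 24 hours had an adjusted p of 0.06. The 9 members left out by the count filter at 24 hours against time 0 had at most 16 counts in a library, which limits the precision of their values.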
